A study of Homo sapiens with 17 samples.

Results

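The genes for 8 core transcription factors of the absorptive enterocyte, namely CDX1, CDX2, HNF4A, HNF4G, GATA4, GATA6, KLF4 and KLF5, were followed for the histone variant H2A.Z at their gene ends, in their bodies and in the 50 kb on either side. They were chosen by name, 8 of the 20037 protein-coding genes of the annotation (GRCh38.p14, the hg38 build). The cells were Caco-2/15, a line derived from a colon cancer that acquires enterocyte features after it reaches confluence, and all of them carried a Flag tag added by CRISPR-Cas9 to the 3′ region of 1 allele of an H2A.Z gene. The study asked how each H2A.Z isoform is placed in chromatin as the cells differentiate. Flag antibody precipitated chromatin in 4 groups: H2A.Z.2 (heterozygous H2AFV-Flag) postconfluent, H2A.Z.2 subconfluent, H2A.Z.1 (heterozygous H2AFZ-Flag) postconfluent and H2A.Z.1 subconfluent, where postconfluent means 7 days past confluence. Each group had 2 lists of enriched intervals, 1 from each of 2 experiments named Exp1 and Exp2. The labels do not say how many clones carried each tag, and the Flag signal reads the protein made from the tagged allele.

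H2A.Z replaces H2A in nucleosomes that often flank the starts of active or poised genes and lie in enhancers, and its isoforms H2A.Z.1 and H2A.Z.2 are near-identical proteins from separate genes. CDX1 and CDX2 are caudal homeobox factors that set intestinal identity. HNF4A and HNF4G are nuclear receptors that switch on absorptive and lipid-handling genes, and GATA4 and GATA6 are zinc finger factors of the gut endoderm. KLF4 and KLF5 are Krüppel-like factors often described as a pair with opposed roles, KLF4 in cells that have stopped dividing and KLF5 in crypt cells that still divide.

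The deposited lists held 30603 to 79425 intervals that covered 18.5 to 46.9 Mb. Each was reduced to its 30603 intervals with the highest −log10 p-value, the length of the shortest list, which came from H2A.Z.2 subconfluent Exp2. The authors' fold enrichment of each interval is expressed as a percentile of the list it belongs to, so that 100 marks the highest fold enrichment of that list. A gene end counts as occupied when an interval reaches to within 1 kb of it. Sequencing depth is unknown, and a position with no interval may hold signal below the authors' threshold. By the run identifiers in the interval names, H2A.Z.1 Exp1 and H2A.Z.2 Exp1 were from different runs and all Exp2 lists from 1 run, so each isoform difference in score printed for a gene end is also given within each experiment.

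The promoter table used here, from RefSeq, gave the strand and starts of 5 of the 8 genes, those other than CDX1, HNF4G and GATA4. The 250 bases before 5 of these starts are shown because the number of lists with an H2A.Z interval within 1 kb differed among them, from 0 to 8. They are written 5′ to 3′ in the direction of transcription, from RefSeq on GRCh38.p14. HNF4A has an outer start (chr20:44355449-44355698, plus strand) and an inner start (chr20:44400989-44401238, plus strand), of which the outer is the upstream promoter known as P2 and the inner is P1. The CDX2 stretch is chr13:27969316-27969565 (minus strand), that of KLF4 is chr9:107489770-107490019 (minus strand) and that of the inner start of KLF5 is chr13:73058755-73059004 (plus strand). In the HNF4A outer sequence, capitals mark the bases between the outermost summits of the 8 lists. In the other 4 sequences, capitals mark matches, on either strand, to motifs that the 4 factor families or SP factors are known to bind. The CDX core was searched as TTTAT and the GATA core as GATAA. The HNF4 core was searched as CAAAG. The GC box, bound by SP and KLF factors, was searched as GGGCGG and the KLF box as CACCC. Adjoining or overlapping matches run together in capitals.
HNF4A outer start: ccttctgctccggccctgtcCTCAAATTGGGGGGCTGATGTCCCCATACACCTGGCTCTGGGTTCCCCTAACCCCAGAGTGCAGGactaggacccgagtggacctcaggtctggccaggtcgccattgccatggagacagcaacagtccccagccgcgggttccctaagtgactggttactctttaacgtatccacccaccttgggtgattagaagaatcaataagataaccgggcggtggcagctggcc
HNF4A inner start: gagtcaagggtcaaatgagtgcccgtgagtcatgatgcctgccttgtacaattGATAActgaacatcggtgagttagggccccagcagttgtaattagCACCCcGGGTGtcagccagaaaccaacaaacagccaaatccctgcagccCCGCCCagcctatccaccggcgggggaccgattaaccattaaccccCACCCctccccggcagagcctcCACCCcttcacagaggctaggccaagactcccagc
CDX2 start: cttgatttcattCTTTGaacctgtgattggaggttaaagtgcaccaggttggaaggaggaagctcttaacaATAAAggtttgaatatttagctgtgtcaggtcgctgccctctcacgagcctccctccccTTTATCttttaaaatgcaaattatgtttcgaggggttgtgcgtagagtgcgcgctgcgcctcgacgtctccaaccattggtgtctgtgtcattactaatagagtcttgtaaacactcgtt
KLF4 start: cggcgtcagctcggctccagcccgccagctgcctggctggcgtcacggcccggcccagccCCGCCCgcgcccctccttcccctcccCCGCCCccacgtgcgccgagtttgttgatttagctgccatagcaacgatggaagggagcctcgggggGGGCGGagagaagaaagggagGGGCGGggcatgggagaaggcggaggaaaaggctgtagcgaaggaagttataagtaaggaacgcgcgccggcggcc
KLF5 inner start: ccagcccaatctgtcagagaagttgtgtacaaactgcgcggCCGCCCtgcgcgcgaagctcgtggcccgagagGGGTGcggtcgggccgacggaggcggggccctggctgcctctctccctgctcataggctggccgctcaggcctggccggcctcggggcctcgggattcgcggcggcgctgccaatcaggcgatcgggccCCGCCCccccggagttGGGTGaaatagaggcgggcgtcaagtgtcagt

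Of the 8 genes, CDX1, CDX2, HNF4A, HNF4G and KLF4 had an H2A.Z interval at a gene end in all 8 lists. Among all protein-coding genes, 54.5% did (10919 of 20037), so 5 of 8 is near that share. GATA6 was occupied in 7 lists, GATA4 in 4 and KLF5 in 0, where 33.1% of all protein-coding genes had no interval at either end in any list. With the lists at their full length, GATA6 was occupied in 8 lists, GATA4 in 7 and KLF5 still in 0. The plot of percentiles at gene ends shows that the occupied genes differed widely in strength.

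**Figure D1:**
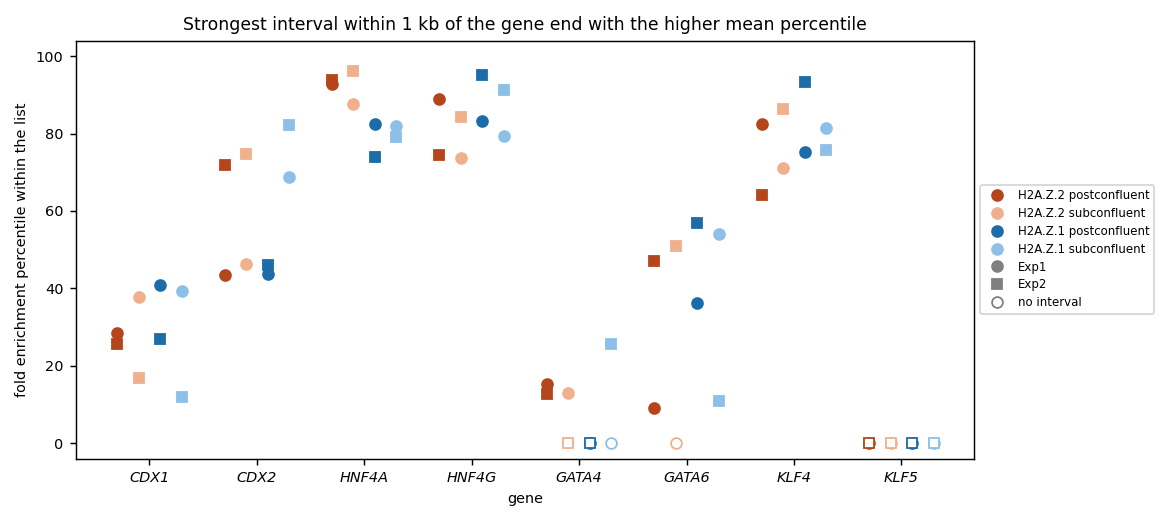
Percentile of fold enrichment within the list (y axis) of the strongest interval within 1 kb of the gene end with the higher mean percentile, for the 8 genes (x axis) and 8 lists; filled marks are lists with an interval, open marks at 0 are lists with none, circles are Exp1 and squares Exp2. HNF4A, HNF4G and KLF4 lie between 64.1 and 96.2, CDX1 between 11.8 and 41.0, and KLF5 has no interval in any of the 8 lists.

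HNF4A was the gene with the highest mean standing of the 5. At its outer start (20:44355699) the interval stood at percentiles 92.9 and 93.9 in H2A.Z.2 postconfluent cells and 87.7 and 96.2 in H2A.Z.2 subconfluent cells, against 82.6 and 74.0 in H2A.Z.1 postconfluent cells and 81.9 and 79.1 in H2A.Z.1 subconfluent cells. All 4 H2A.Z.2 lists lay above all 4 H2A.Z.1 lists, while the states overlapped within each isoform. The mean was 92.7 ± 3.6 in H2A.Z.2 lists and 79.4 ± 3.9 in H2A.Z.1 lists (SD, n = 4 each). Ranking the 10887 genes occupied in all 8 lists and turning ranks into normal scores, in units of standard deviations, gave a difference of H2A.Z.2 minus H2A.Z.1 of 0.88 (SE 0.35), which missed the threshold by limma (adjusted p = 1.0, unadjusted p = 0.0195). Of the 10887 ranked genes, 0.955% lay wholly higher in H2A.Z.2 lists and 1.17% wholly lower. Within Exp2, where both isoforms shared a run, the score difference was 1.18, and within Exp1 it was 0.58.

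The HNF4A interval covered the outer start itself in 8 of 8 lists, with its summit at -230 to -166 bases from it, the 65 bases in capitals in the outer sequence. The 250 bases held 1 GATA core, 1 GC box and 2 KLF boxes. The inner start (20:44401239) had no interval within 1 kb in any list, at equal or at full length. Both HNF4A starts had 8 CG dinucleotides in the 250 bases before them, and their GC contents were 58.4% (outer) and 58.0% (inner). No interval of the equal-length lists lay in the 78898-bp gene away from its ends. The same was true of 51.5% of the 3743 genes of 50 kb or more that had an occupied end in all 8 lists. The far end of HNF4A was occupied in 5 lists at percentiles of at most 15.7.

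HNF4G, the paralog of HNF4A expressed in intestine, was the most isolated locus of the 8. The interval at its lower-coordinate end (8:75407649) stood at 88.9 and 74.5 in H2A.Z.2 postconfluent cells, 83.2 and 95.0 in H2A.Z.1 postconfluent cells, 73.6 and 84.2 in H2A.Z.2 subconfluent cells and 79.4 and 91.2 in H2A.Z.1 subconfluent cells. The ranges of the states and of the isoforms overlapped. H2A.Z.1 subconfluent Exp1 and H2A.Z.2 postconfluent Exp2 had a second interval within 1 kb of the same end, at 34.6 and 70.6. Nothing else was listed in the 159186-bp gene or in the 50 kb on either side of it in the equal-length lists. The score difference was 0.20 (SE 0.38) between postconfluent and subconfluent cells and -0.42 (SE 0.38) between H2A.Z.2 and H2A.Z.1, with adjusted p = 0.912 and 1.0 by limma. The isoform difference was 0.11 within Exp1 and -0.96 within Exp2, and -0.66 to -0.19 when 1 list was left out.

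**Figure D2:**
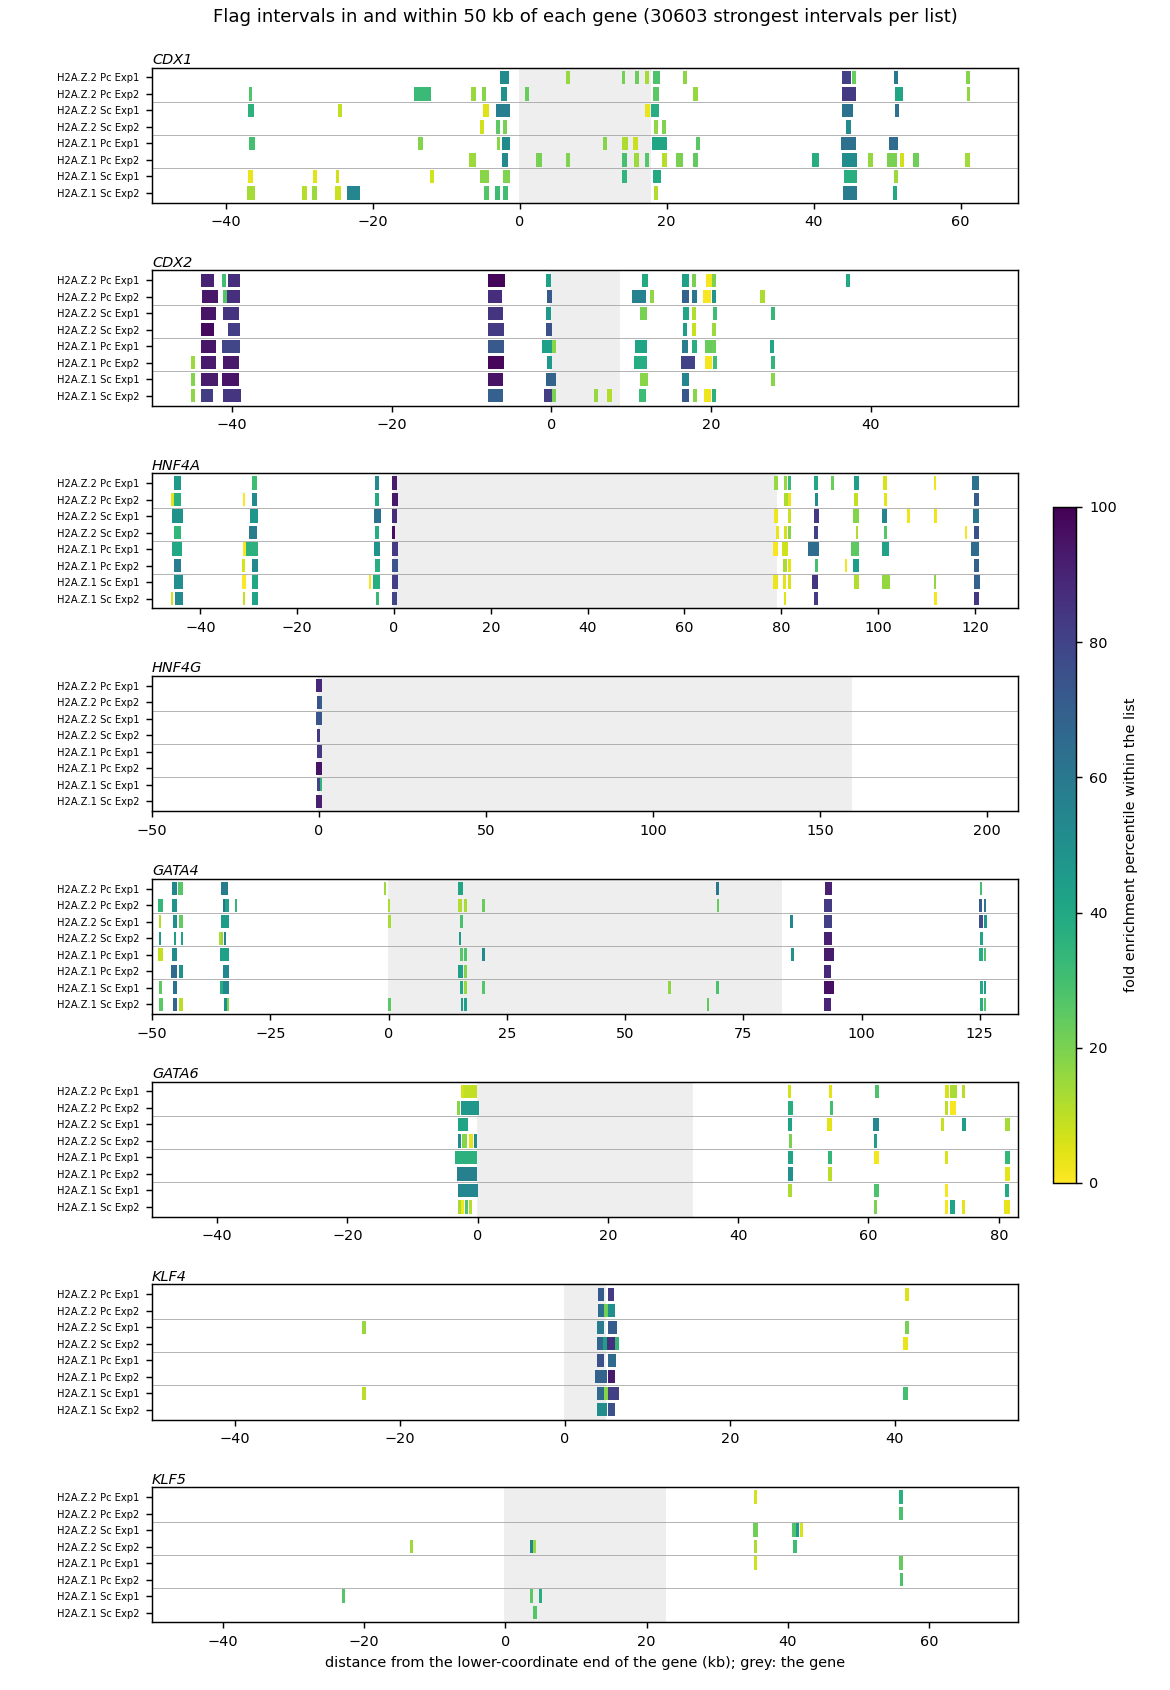
Intervals of each list (rows, H2A.Z.2 above H2A.Z.1 and postconfluent, Pc, above subconfluent, Sc) in and around the 8 genes, by distance in kb from the lower-coordinate end of the gene; grey shading is the gene and colour is the percentile within the list. HNF4G shows 1 position, HNF4A has no interval in the gene away from its ends, and CDX1, CDX2 and GATA4 have intervals spread over the 50 kb on either side.

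CDX2 carried its interval at the end of transcription and not at its start. At the transcription end (13:27960918) the percentiles were 43.3 and 72.0 in H2A.Z.2 postconfluent cells and 43.6 and 46.1 in H2A.Z.1 postconfluent cells, against 46.3 and 74.7 in H2A.Z.2 subconfluent cells and 68.8 and 82.1 in H2A.Z.1 subconfluent cells. Within H2A.Z.1 both postconfluent lists lay below both subconfluent lists, while in H2A.Z.2 the states overlapped. The share of ranked genes with such a separation of 2 lists from 2 was not counted, so no state effect is read from it. The mean was 51.2 ± 13.9 in postconfluent lists and 68.0 ± 15.4 in subconfluent lists (SD, n = 4 each). The score difference of postconfluent minus subconfluent was -1.21 (SE 0.53) in H2A.Z.1, with adjusted p = 0.687 by limma, and -0.15 (SE 0.53) in H2A.Z.2, with adjusted p = 0.981. The difference between these differences was 1.06 (SE 0.75; limma adjusted p = 1.0).

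At the CDX2 start (13:27969315), shown above, 1 of 8 lists had an interval, that of H2A.Z.1 subconfluent Exp2 at percentile 11.7, and 2 did at full length. Occupancy at the transcription end in all 8 lists was a feature of 4.51% of the 15843 genes with a tabulated start, and 1.1% combined it with at most 1 list at the outer start. A position of higher mean percentile in both states lay farther along, past the gene, centred at -6.94 kb from the transcription end. There the percentiles were 98.5 and 86.9 in H2A.Z.2 postconfluent cells, 72.6 and 98.3 in H2A.Z.1 postconfluent cells, 84.7 and 82.5 in H2A.Z.2 subconfluent cells and 95.2 and 69.4 in H2A.Z.1 subconfluent cells. The states overlapped at that position. A pair of regions at -42.8 and -40.1 kb, within 1 kb of an end of PDX1, the neighbouring homeobox gene that directs pancreas and duodenum, stood at 79.1 to 97.8 in all 8 lists.

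CDX1, the paralog of CDX2, had the weakest ends of the genes occupied in all 8 lists. Its higher-coordinate end (5:150184558) stood at 28.4 and 25.5 in H2A.Z.2 postconfluent cells, 41.0 and 26.9 in H2A.Z.1 postconfluent cells, 37.7 and 16.8 in H2A.Z.2 subconfluent cells and 39.4 and 11.8 in H2A.Z.1 subconfluent cells. The states overlapped, with a score difference of 0.19 (SE 0.36; limma adjusted p = 0.916). At the lower-coordinate end (5:150166778) only H2A.Z.2 postconfluent Exp2 had an interval, at 23.2, and 4 lists did at full length. A region centred at -2.32 kb from the lower-coordinate end was present in all 8 lists at 19.4 to 57.6. Intervals inside the CDX1 body were seen in 3 of 4 postconfluent lists (3 and 0 in H2A.Z.2, 3 and 4 in H2A.Z.1) and in 1 of 4 subconfluent lists (0 and 0 in H2A.Z.2, 1 and 0 in H2A.Z.1), so the states shared the value 0. At full length, where the lists differ in length, the body held 4 to 10 in postconfluent lists and 0 to 4 in subconfluent lists. H2A.Z.2 postconfluent Exp2, with 0 after the cut, had 10.

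KLF4 was the only member besides HNF4A with a tabulated start occupied in all 8 lists, a property of 57.8% of the 15843 genes with such a start, while 31.1% had no interval at any start in any list. Its start (9:107489769) stood at 82.4 and 64.1 in H2A.Z.2 postconfluent cells, 75.2 and 93.2 in H2A.Z.1 postconfluent cells, 71.1 and 86.3 in H2A.Z.2 subconfluent cells and 81.5 and 75.7 in H2A.Z.1 subconfluent cells. The 4 groups overlapped, and the state difference was 0.03 (SE 0.38; limma adjusted p = 0.989). The signal was split over a pair of regions. One, centred 0.523 kb inside the gene at 51.4 to 75.2, reached over the start, and the start base itself was covered in 5 of 8 lists. The other was centred at -0.917 kb, upstream, at 50.2 to 93.2. The values given for the start are those of the stronger of the pair in each list. Its promoter sequence holds 4 GC boxes and no CDX, GATA or HNF4 core.

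KLF5 gave the one all-or-none contrast between states near the 8 genes. No interval lay within 1 kb of its outer start (13:73054976) or of its far end (13:73077538) in any list. Within 1 kb of its inner start (13:73059005) no postconfluent list had an interval, while in subconfluent cells the percentiles were 54.7 in H2A.Z.2 Exp2, 38.0 in H2A.Z.1 Exp1 and 26.7 in H2A.Z.1 Exp2, with no interval in H2A.Z.2 Exp1. At full length the inner start was occupied in 1 postconfluent and 4 subconfluent lists. A region centred 56.0 kb from the outer start, 33.3 kb past the gene (13:73110823-73111171), had the opposite pattern. It stood at 36.4 and 28.6 in H2A.Z.2 postconfluent cells and at 23.5 and 28.7 in H2A.Z.1 postconfluent cells, and no subconfluent list had it. At full length it was in 4 postconfluent lists and 1 subconfluent list. Of all 47119 merged regions, 0.49% were in all 4 postconfluent and no subconfluent list, which is 231 regions, so 1 such region among the 100 near the 8 genes is close to that share. The reverse, all 4 subconfluent and no postconfluent list, held for 0 of the 100 and for 0.233% of all merged regions.

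**Figure D3:**
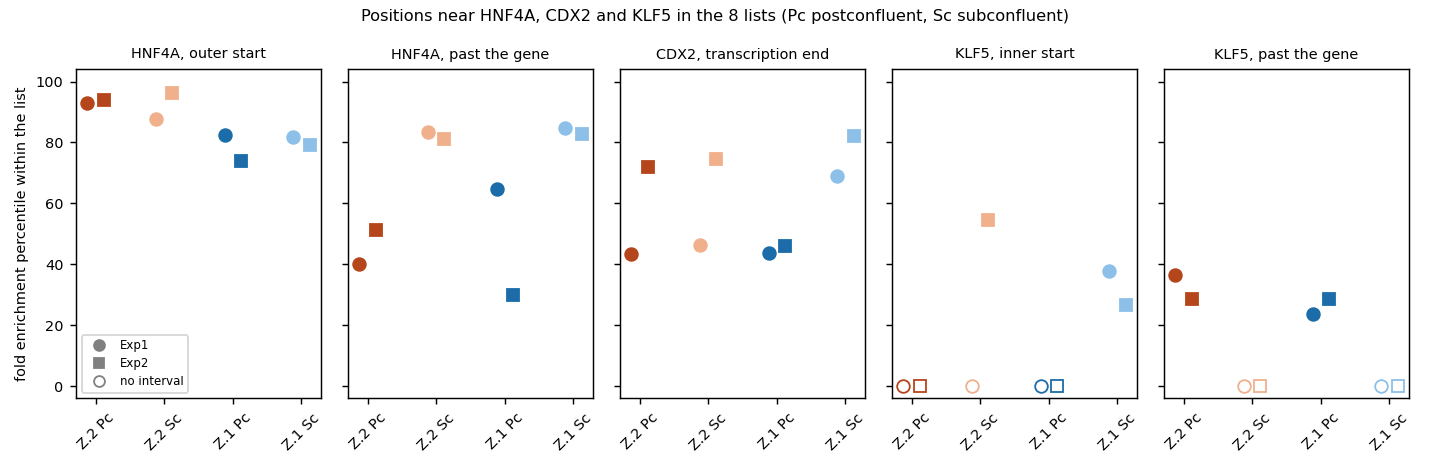
Percentile within the list (y axis) at 5 positions near HNF4A, CDX2 and KLF5 in the 4 groups (x axis); circles are Exp1, squares Exp2, and open marks at 0 have no interval. At the HNF4A outer start the H2A.Z.2 lists lie above the H2A.Z.1 lists, past HNF4A all postconfluent lists lie below all subconfluent lists, and past KLF5 only the postconfluent lists have an interval.

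GATA6 had a broad domain upstream of its start (18:22169589). The merged region spanned 3631 bp, was centred at -1.68 kb and was present in all 8 lists. It stood at 9.2 and 47.1 in H2A.Z.2 postconfluent cells, 36.2 and 57.0 in H2A.Z.1 postconfluent cells, 41.7 and 51.7 in H2A.Z.2 subconfluent cells and 54.1 and 27.6 in H2A.Z.1 subconfluent cells. The states overlapped. It was 1 piece in 4 lists and 2 to 4 pieces in the others, and the bases covered ranged from 1477 to 3311. A piece reached to within 1 kb of the start in 7 lists, and none did in H2A.Z.2 subconfluent Exp1. No interval lay in the GATA6 body or at its far end.

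GATA4 was weakly and irregularly marked at its lower-coordinate end (8:11676935), with 15.2 and 12.7 in H2A.Z.2 postconfluent cells, no interval in either H2A.Z.1 postconfluent list, 13.1 in H2A.Z.2 subconfluent Exp1 and 25.6 in H2A.Z.1 subconfluent Exp2. It was steadier away from its ends. Regions at 15.2 kb inside the gene, at -34.8 kb and at -45.4 kb were present in all 8 lists, at 12.0 to 45.6, 43.2 to 62.9 and 44.2 to 67.1. The strongest region of its surroundings, at 93.1 kb and 81.3 to 96.0, lay within 1 kb of an end of NEIL2, a DNA repair gene.

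Ordered by their mean score over the 8 lists, the 5 ranked genes were HNF4A (0.51), HNF4G (0.35), KLF4 (0.08), CDX2 (-0.73) and CDX1 (-1.83), where 0 is the middle of the 10887 ranked genes. The percentile ranges of HNF4A, HNF4G, KLF4 and CDX2 overlapped one another, and the highest CDX1 value (41.0) was below the lowest CDX2 value (43.3). The gene whose 8 scores were most like those of HNF4A, among 10886 compared, was PGAP3, at a root mean square difference of 0.18 where the median gene differed by 1.02. For HNF4G it was CHST7 (0.24), for KLF4 AFTPH (0.20), for CDX2 LGR4 (0.24) and for CDX1 NPC1L1 (0.26).

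None of the 5 ranked genes passed the limma threshold for state, where 5 of 10887 genes did (0.0459%), 4 of them higher and 1 lower in postconfluent cells, a count of 0 to 5 when 1 list was left out and of 9 with the experiment number as a replicate block. None passed for isoform, for state within H2A.Z.2 or within H2A.Z.1, for isoform within either state or for the interaction, and in these 6 comparisons 0 of 10887 genes did. The gene ends held by all 4 lists of one state and none of the other, 0.13% of all genes for postconfluent and 0.0948% for subconfluent cells, included none of the 8. The percentiles of none of the 5 lay wholly higher or wholly lower in postconfluent lists, as they did for 2.72% and 2.6% of ranked genes. At an unadjusted limma p under 0.05 there were 995 genes for state, with no member, and 406 for isoform, with HNF4A alone of the 5. CDX2 alone was among the 751 for state within H2A.Z.1, and no member was among the 633 within H2A.Z.2, the 384 for isoform in postconfluent cells, the 400 in subconfluent cells or the 341 for the interaction. With 2 lists a group these p-values measure the spread between the lists, and limma draws the spread of each gene partly from all ranked genes.

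The surroundings of the 8 genes held 100 merged regions, of which 22 were in all 8 lists, against 35.8% of the 47119 merged regions of the genome. CDX1 had 26 regions with 3 in all 8 lists, HNF4A 18 with 6, GATA4 17 with 4, CDX2 15 with 5, KLF5 10 with 0, GATA6 9 with 1, KLF4 4 with 2 and HNF4G 1 with 1. The largest state difference among the 22 was past HNF4A, centred 86.7 kb from the outer start and 6.72 kb beyond the gene (20:44441313-44443450). There the percentiles were 40.1 and 51.2 in H2A.Z.2 postconfluent cells and 64.8 and 30.1 in H2A.Z.1 postconfluent cells, against 83.3 and 81.1 in H2A.Z.2 subconfluent cells and 84.7 and 82.6 in H2A.Z.1 subconfluent cells. Every postconfluent list lay below every subconfluent list, as in 2.89% of the 16878 regions in all 8 lists, where 2.91% lay wholly higher. The mean was 46.5 ± 14.9 in postconfluent lists and 82.9 ± 1.5 in subconfluent lists (SD, n = 4 each). The score difference was -1.32 (SE 0.34), with an unadjusted p of 0.000794 that did not pass after adjustment over all regions (limma adjusted p = 0.179, 0.0769 to 0.505 over the alternatives). It was -1.31 in H2A.Z.2 and -1.33 in H2A.Z.1. Within Exp1 it was -1.50 for H2A.Z.2 and -0.85 for H2A.Z.1, and within Exp2 -1.12 and -1.81. Their shared sign follows from the separation of the lists given above and is no further support.

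The next largest state differences among the 22 did not pass either. The region 44.8 kb from the lower-coordinate end of CDX1, within 1 kb of an end of SLC6A7, a proline transporter gene of neurons, stood at 81.1 and 82.8 in H2A.Z.2 postconfluent cells and 63.0 and 51.7 in H2A.Z.1 postconfluent cells, against 62.8 and 52.6 in H2A.Z.2 subconfluent cells and 36.8 and 58.3 in H2A.Z.1 subconfluent cells. The states overlapped, with a score difference of 0.63 (SE 0.33; limma adjusted p = 0.559). The CDX2 end, scored as a region, differed by -0.60 (SE 0.35; limma adjusted p = 0.609), and by -0.85 to -0.35 when 1 list was left out. Of the 16878 regions, limma called 0 for state and 0 for isoform, and at an unadjusted p under 0.05 there were 1671 for state and 639 for isoform, each with 1 of the 22. The 1 for isoform was the HNF4A outer start, where all H2A.Z.2 lists lay above all H2A.Z.1 lists, as in 0.966% of the 16878 regions, and 1.3% lay wholly lower.

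Regions held by both lists of one group and neither of another were few and mostly low in their lists. In H2A.Z.2, 6 of the 100 regions were in postconfluent lists only, where 2.24% of all merged regions were: CDX1 at 61.0 kb, CDX2 at 19.5 kb, GATA4 at 69.6 kb, GATA6 at 72.0 and 73.0 kb and KLF5 at 56.0 kb, counted from the lower-coordinate end. In subconfluent lists only there was 1, KLF5 at 40.9 kb (1.84% of all regions). In H2A.Z.1, 4 were in postconfluent lists only (3.69% of all), CDX1 at 15.8 and 24.1 kb, GATA6 at 54.1 kb and KLF5 at 56.0 kb. Another 4 were in subconfluent lists only (2.04% of all), CDX1 at -27.9, -24.7 and -4.74 kb and HNF4A at 111.9 kb. Regions near 1 gene are neighbours on the chromosome and are not independent. The KLF5 region at 56.0 kb was the one that both isoforms shared.

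Between isoforms, the counts of such regions were as low. In postconfluent cells 2 were in H2A.Z.2 only (0.679% of all), GATA4 at 69.6 kb and GATA6 at 73.0 kb, and 2 in H2A.Z.1 only (2.31%), CDX2 at 27.7 kb and GATA6 at 81.3 kb. In subconfluent cells 2 were in H2A.Z.2 only (1.03%), KLF5 at 35.4 and 40.9 kb, and 5 in H2A.Z.1 only (1.84%), CDX1 at -27.9 kb, CDX2 at -44.9 kb, HNF4A at -31.0 kb, GATA4 at 16.3 kb and GATA6 at 72.0 kb. No region near the 8 genes was in all 4 lists of one isoform and in none of the other, and 0.0149% of all regions were so for H2A.Z.2 and 0.0976% for H2A.Z.1.

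The number of intervals in each gene and the 50 kb on either side overlapped between the states for all 8 genes. CDX1 had 11 and 11 in H2A.Z.2 postconfluent cells and 11 and 17 in H2A.Z.1 postconfluent cells, against 8 and 6 in H2A.Z.2 subconfluent cells and 10 and 11 in H2A.Z.1 subconfluent cells, so the states met at 11. CDX2 had 10 to 12 in postconfluent lists and 7 to 13 in subconfluent lists. KLF4 had 2 to 3 in postconfluent lists and 2 to 5 in subconfluent lists, and KLF5 had 1 to 2 in postconfluent lists and 1 to 5 in subconfluent lists. Among all protein-coding genes, 0.868% had counts wholly higher and 0.699% wholly lower in postconfluent lists. Each list was also left out in turn, which separated the states for 0 to 4 of the 8 genes. The highest count, 4, came without H2A.Z.1 subconfluent Exp2, which is named only because its omission gave that count. CDX1 and CDX2 were then higher and KLF4 and KLF5 lower in postconfluent lists. Without that list the shares of all genes were 1.49% higher and 1.15% lower. An omission picked by its outcome shows no state pattern of these genes. No test was made of these counts.

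**Figure D4:**
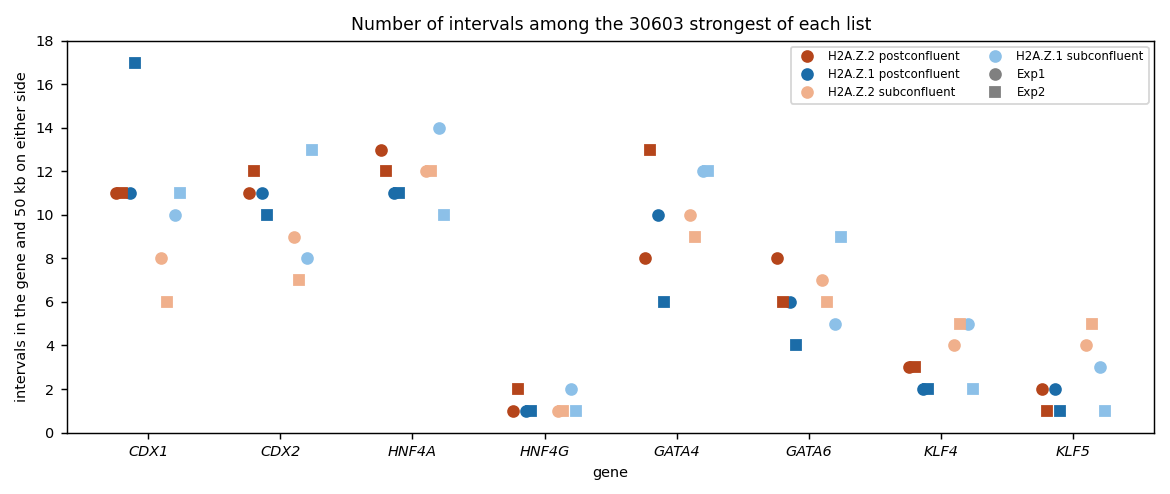
Number of intervals in the gene and 50 kb on either side (y axis) among the 30603 strongest of each list, for the 8 genes (x axis); each mark is 1 list, circles Exp1 and squares Exp2. CDX1 spans 11 to 17 in postconfluent lists and 6 to 11 in subconfluent lists, HNF4A 10 to 14 over all lists, and HNF4G 1 to 2.

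Occupancy of the starts was set beside their CG content. Over 22199 tabulated protein-coding starts, those with an interval in all 8 lists had a median of 22 CG dinucleotides in the 250 bases before them (quartiles 16 and 29), and those with none in any list had 4 (quartiles 2 and 12). The KLF4 start had 25 CG dinucleotides and an interval in 8 lists, and the GATA6 start had 16 and 7 lists. The KLF5 outer start had 3 and no list. Against this order stood the HNF4A outer start, with 8 CG dinucleotides and all 8 lists, and the KLF5 inner start, with 27 and 3 lists. The CDX2 start, with 10 CG dinucleotides and 1 list, and the HNF4A inner start, with 8 and no list, were within the quartiles of the starts without intervals.

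**Figure D5:**
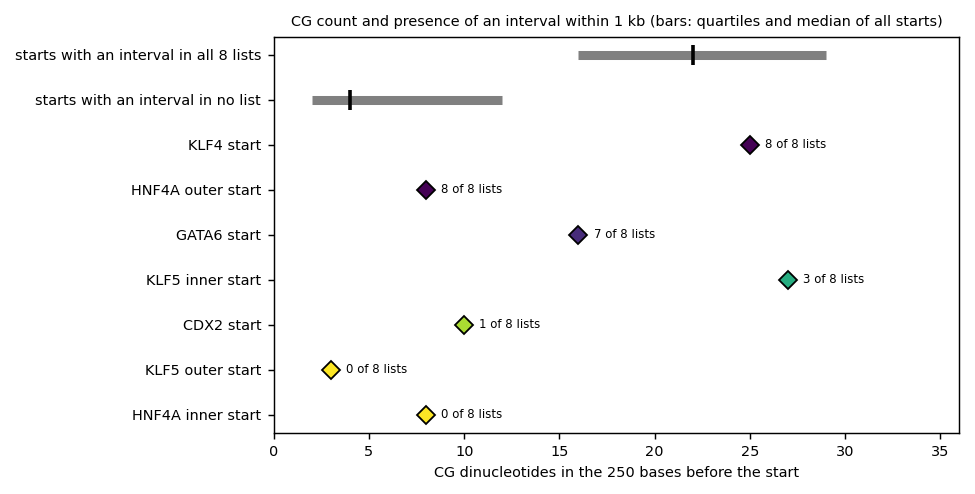
Number of CG dinucleotides in the 250 bases before each start (x axis) for the 7 tabulated starts of the 8 genes (diamonds, coloured by the number of lists with an interval within 1 kb, which is printed beside them) and, above, the median (black line) and quartiles (grey bar) of all starts with an interval in all 8 lists or in none. The HNF4A outer start has 8 CG dinucleotides and an interval in 8 lists, and the KLF5 inner start has 27 and an interval in 3.

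The letters of the factors' own motifs occurred in some of the sequences above. The CDX2 stretch held 2 CDX cores, 1 GATA core and 1 HNF4 core, of which a CDX core and the GATA core overlap. The HNF4A inner stretch held 1 GATA core, 1 GC box and 4 KLF boxes, and that of the KLF5 inner start 2 GC boxes and 2 KLF boxes. Over all 22199 promoters of the same length, 27% held the CDX core, 16.8% the GATA core, 38.6% the HNF4 core, 53.7% the GC box and 58.4% the KLF box on either strand. The matches describe these letters and no binding was measured.

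Occupancy was counted in the same way in 4 lists of related or contrasting genes. Of 24 family members and partners, such as the GATA cofactor ZFPM1, 10 had an interval at an end in all 8 lists and 8 in none. Of 20 other intestinal and epithelial factors, such as SOX9, a factor of crypt progenitors, 10 were occupied in all 8 lists and 2 in none. Of 20 enterocyte genes known to be bound or driven by these factors, 7 were occupied in all 8 lists and 9 in none. The 7 were TREH, APOA1, APOA4, APOB, MTTP, ANPEP and DPP4. The 9 were SI and LCT, which like TREH encode brush border disaccharidases, with CDH17, FABP1, FABP2, SLC5A1, MUC13, CYP3A4 and KRT20. Of 20 lineage factors of other tissues, 3 were occupied in all 8 lists (TAL1, WT1 and MITF) and 12 in none. Over all protein-coding genes the shares were 54.5% in all 8 lists and 33.1% in none. The median percentile of the genes occupied in all 8 lists was 71.8 for family members and partners and 75.4 for other intestinal factors. It was 55.2 for the enterocyte genes, 92.1 for the 3 lineage factors and 74.9 for the 5 ranked members. An interval is no measure of expression, which is not analysed here.

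No gene of these 4 lists was called between postconfluent and subconfluent cells by limma. Among the ranked ones, 4 of 10 family members and partners had a positive score difference (median -0.17, with KLF15 lowest at -0.66 and KLF6 highest at 0.51), and 7 of 10 other intestinal factors did (median 0.14, OVOL1 -1.09, SOX9 0.66). For the enterocyte genes it was 2 of 7 (median -0.14, APOA1 -0.72, MTTP 0.50), for the lineage factors 1 of 3 (median -0.03, TAL1 -1.09, MITF 0.16) and for the 8 genes themselves 3 of the 5 ranked (median 0.03). Over all 10887 genes 49.8% were positive, with a median of -0.00.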

How the data were processed

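The analysis used 8 interval lists from Flag chromatin precipitations, 1 list per sample, and 9 further labelled samples were not analysed here. The submitters' processing notes name hg38, BWA and deepTools, while the interval caller, its control and any use of the spike-in are matters not given in the sources used here. Per interval, the authors deposited a score, a fold enrichment (a ratio), a −log10 p-value, a −log10 q-value and a summit offset. These were used only within a list. Lists were cut to 30603 intervals by −log10 p, intervals needed 1 bp of overlap with the 1 kb around a gene end, and of both gene ends that of higher mean percentile was scored, whatever the group. Percentiles of fold enrichment became normal scores over the 10887 genes, or 16878 merged regions, present in all 8 lists. limma 3.58.1 (R 4.3.3) fitted 4 group means, 2-sided, with Benjamini-Hochberg adjustment at 0.05, and was tested on simulated data. Differences are postconfluent minus subconfluent and H2A.Z.2 minus H2A.Z.1. The labels describe duplicates without saying whether cultures were separate, so p-values measure only the spread between these samples.

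The 8 genes and all gene lists were chosen with earlier results of these data known. All 8 are named, with the most alike gene of each ranked one, the extremes of each other list, regions present in one group only, and the 3 regions with the largest state difference. Other genes named as examples were chosen after their values were seen. Exons, introns and untranslated regions were not used here. Python 3.11.15 made the tables.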

Additional observations from a re-analysis of the deposited data

How the results depend on the processing

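No member gene and none of the 22 regions was called by limma under any alternative in which it could be ranked, with or without the replicate block. Of 17 alternatives for gene ends, CDX1 could be ranked in 12, CDX2 in 14, HNF4G in 16, and HNF4A and KLF4 in all 17. GATA4, GATA6 and KLF5 were not ranked in the main setting and so were not tested there. The count of genes occupied in all 8 lists, 5, was 3 with lists of 15301 intervals and 3 at equal covered length, and 5 to 6 when 1 list was left out. The count of genes whose interval numbers separated the states, 0, was 4 without H2A.Z.1 subconfluent Exp2 (0 to 4 over the lists left out) and 1 with 25 kb on either side. Small score differences changed sign when 1 list was left out: CDX1 state -0.026 to 0.40, CDX1 isoform -0.21 to 0.22, CDX2 isoform -0.24 to 0.23, HNF4A state -0.22 to 0.13, HNF4G state -0.032 to 0.43 and KLF4 state -0.25 to 0.32. CDX1 isoform was also -0.016 with whole lists, and CDX2 isoform 0.027 ranked by −log10 p. Within Exp1 and Exp2 the isoform difference was 0.055 and -0.044 for CDX1, and -0.24 and 0.22 for CDX2. The cause was not tested. Over all genes, 5 calls for state became 41 ranked by −log10 p, 9 with the replicate block, 3 at annotated starts, 3 with summits, 0 with these shorter lists and 0 to 5 with 1 list left out (0 without H2A.Z.2 postconfluent Exp1, without H2A.Z.2 subconfluent Exp2 and without H2A.Z.1 postconfluent Exp2, 2 without H2A.Z.2 subconfluent Exp1 or H2A.Z.1 subconfluent Exp2, and 3 without H2A.Z.1 postconfluent Exp1). Over regions, 0 became 9 ranked by −log10 p, 7 with whole lists and 2 with the block. Deviations of same-numbered lists from their group means correlated at 0.207 (H2A.Z.1) and 0.158 (H2A.Z.2) between the states of an isoform, which shared a run in both experiments. The other pairs, which shared a run in Exp2 only, correlated at -0.055 to 0.050.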
